A study of Homo sapiens with 14 samples.

Results

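The AP-1 family genes and ATF3 were examined for binding of the histone methyltransferase KMT2D in glucose-deprived head and neck squamous cell carcinoma cells. Of 13808 peaks in the KMT2D ChIP-seq list, 41 had their summit within 50 kb of 1 of the 8 genes, and they lay around 7 of them. JUNB, FOS and FOSL1 each had a peak with a fold enrichment of at least 10, JUN, FOSB, FOSL2 and ATF3 had weaker peaks, and JUND had none. Of all 13808 peaks, 4.18% had a fold enrichment of at least 10. The peaks were chosen by the position of their summits in the deposited list (hg19), and the 8 genes were picked with earlier results of these data known. Their number and position are therefore described without a test.

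The cells were SCC23, an established human HNSCC line, labelled as KMT2D wild type (KMT2D-WT) and as low glucose, which the methods give as 6 h without glucose. Knockout lines of the series were made with guides to KMT2D and controls with guides to LacZ, and the label does not say whether these wild-type cells carried the LacZ guide. 1 library, made with an antibody to KMT2D, was analysed of the 14 samples in the series. There was no replicate and no second condition, so no difference between groups was measured and every interval given here covers counting error only. A peak list holds no expression values, so the cell line was not checked against marker genes.

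AP-1 is a dimeric transcription factor in which a JUN protein pairs with another JUN protein, a FOS protein or an ATF protein through a leucine zipper. JUN, JUNB and JUND can pair with themselves, whereas FOS, FOSB, FOSL1 (FRA-1) and FOSL2 (FRA-2) need a partner. ATF3 belongs to the related ATF/CREB branch and is known as a gene that responds to stress, including a lack of nutrients. In squamous epithelium AP-1 proteins are best known for acting at enhancers of genes of proliferation, differentiation and invasion. KMT2D places methyl groups on H3K4 and works mainly at enhancers.

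AP-1 dimers are known to bind the site TGANTCA, and dimers with ATF partners the cyclic AMP response element (CRE), TGACGTCA. Both were searched on both strands in the 250 bases before the transcription start, together with the looser form TGACNTCA, which includes the full CRE. The bases came from RefSeq (GRCh38.p14), where 7 of the 8 genes had an entry and ATF3 had more than one. No entry of the 7 genes held TGANTCA in these bases, against 6.57% of all 35116 promoters in the table. The form TGACNTCA was found before JUN, JUND and 1 start of ATF3, and in 6.87% of all promoters. The full CRE was found before JUND alone among the 7 genes, and in 1.65% of all promoters.

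The promoters of 4 genes are shown to set the letters beside the peaks: the 3 with a match, which is in capitals, and that of FOS, whose start carried the strongest peak at any start of these genes. They are written in the direction of transcription and end at the base before the start. On GRCh38.p14 they lie at chr1:58784048-58784297 (JUN, minus strand), chr19:18281623-18281872 (JUND, minus strand), chr1:212565157-212565406 (ATF3, plus strand) and chr14:75278578-75278827 (FOS, plus strand). These positions belong to another build than the peaks and were not set against them.
JUN: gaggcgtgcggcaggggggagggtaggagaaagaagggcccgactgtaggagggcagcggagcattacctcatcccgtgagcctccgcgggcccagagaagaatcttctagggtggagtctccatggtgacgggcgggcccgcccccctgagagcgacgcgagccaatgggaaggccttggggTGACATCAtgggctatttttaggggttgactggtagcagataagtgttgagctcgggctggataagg
JUND: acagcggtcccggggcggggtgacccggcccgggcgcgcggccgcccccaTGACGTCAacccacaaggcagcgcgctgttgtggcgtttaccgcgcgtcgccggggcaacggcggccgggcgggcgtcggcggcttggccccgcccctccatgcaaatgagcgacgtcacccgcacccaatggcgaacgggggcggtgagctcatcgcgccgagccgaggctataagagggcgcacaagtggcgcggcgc
ATF3: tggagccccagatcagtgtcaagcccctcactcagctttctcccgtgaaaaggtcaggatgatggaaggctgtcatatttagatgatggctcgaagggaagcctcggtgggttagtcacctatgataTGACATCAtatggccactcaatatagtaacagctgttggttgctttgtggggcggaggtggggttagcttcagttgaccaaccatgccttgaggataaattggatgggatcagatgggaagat
FOS: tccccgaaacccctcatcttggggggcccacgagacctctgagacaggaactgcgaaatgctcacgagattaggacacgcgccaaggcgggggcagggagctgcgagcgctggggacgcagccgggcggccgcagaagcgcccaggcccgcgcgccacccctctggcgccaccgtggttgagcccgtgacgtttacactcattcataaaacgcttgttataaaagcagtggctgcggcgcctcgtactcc

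The match began 67 bases before the start of JUN, 200 before that of JUND and 123 before that of ATF3. JUND, with the full CRE, had no KMT2D peak in its window, and FOS, with no match to the searched forms, had one of the strongest. Other variants of these sites were not searched. Whether a match goes with a KMT2D peak was not tested. Of the 3 starts with a match, that of JUN had a weak peak next to it, while the first start of ATF3 and that of JUND had none.

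The deposited fold enrichment compares the ChIP signal at a summit with the local background, and the q-value is the p-value at the summit after MACS2 adjusted it over the genome. The fold enrichment and the deposited p-value together gave how many ChIP fragments lay over each summit. Over the 41 peaks they ranged from 12 to 128 with a median of 31, and the background of the genome as a whole came to 2.88 fragments. Around these peaks the local background was 1.00 to 3.65 times as high, and it reached at least 2 times at 1 peak, next to FOSL1, compared with 18.6% of the whole list. The Poisson intervals of fragments given below cover the ChIP count only. Counting error of the local background, which also enters the fold enrichment, was not estimated.

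**Figure D1:**
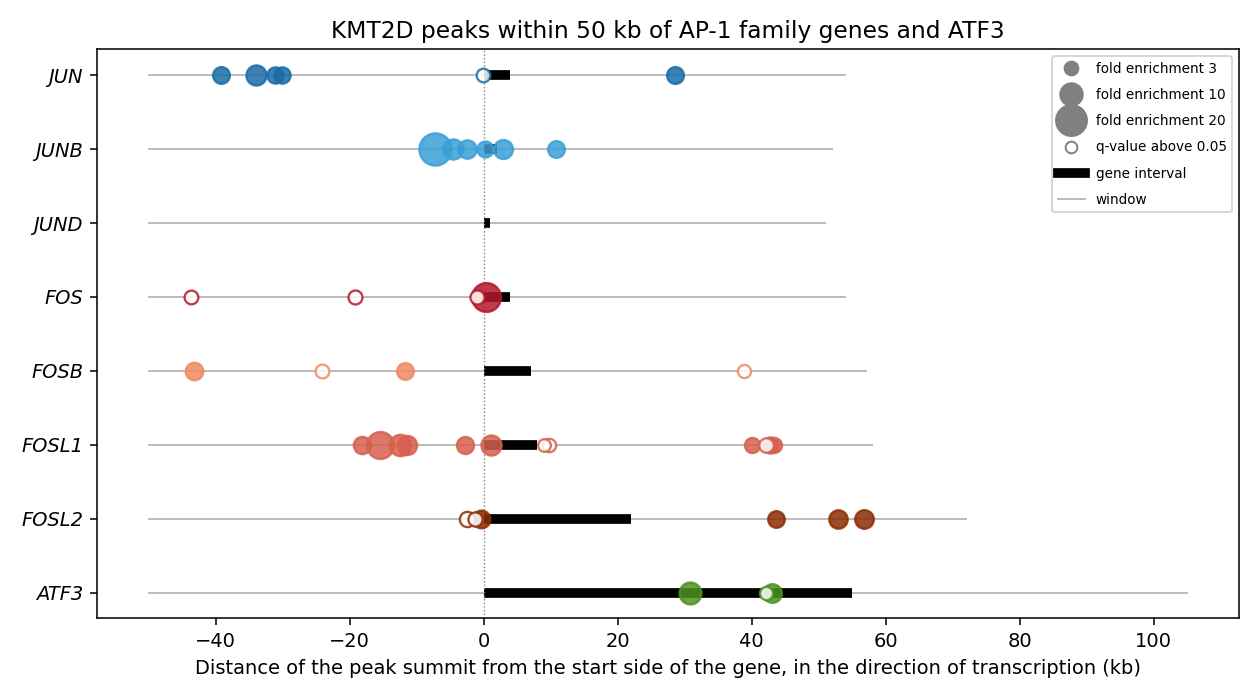
Position of the 41 KMT2D peaks around the 8 genes. The x axis is the distance in kb of the summit from the start side of the gene, in the direction of transcription, each circle is a peak whose area grows with fold enrichment, open circles have a q-value above 0.05, black bars are the genes and grey lines the windows. The strongest JUNB and FOSL1 peaks lie before the gene and the strongest FOS peak at its start. The ATF3 peaks lie inside the gene interval, and the JUND window is empty.

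Starting with the JUN genes, JUNB was bound most strongly. JUNB encodes an AP-1 subunit known as a weaker activator than JUN. Around its interval at chromosome 19 positions 12902000 to 12904000 (plus strand) there were 6 peaks, and 6 of 6 had a q-value of at most 0.01. The strongest peak of all 41 lay 7.26 kb before the gene, at positions 12893112 to 12895334. It had a fold enrichment of 21.8, a q-value of 3.23e-52 and 128 fragments over its summit (95% Poisson interval 107 to 152) against a local background of 3.37, and it was number 8 in the whole list by fold enrichment. It was also the widest of the 41, at 2223 bp.

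The other 5 JUNB peaks were weaker. At 4.54 kb before the gene a peak of 993 bp had a fold enrichment of 7.74 with 40 fragments (28.6 to 54.5), and at 2.42 kb a peak of 1998 bp had 6.30 with 47 fragments (34.5 to 62.5). The peak inside the interval of the gene, at positions 12902025 to 12902432, had a fold enrichment of 4.47 and 22 fragments (13.8 to 33.3). It began next to the start side, whose position is rounded, so whether it covers the start was not resolved. None of the counting intervals of these 3 peaks overlaps that of the strongest peak. That of the peak inside overlaps the edge of that of the peak 4.54 kb before the gene. A peak across the end of the gene, at positions 12903998 to 12905054, had a fold enrichment of 6.83, and another 8.75 kb beyond the end had 5.02. The 6 peaks formed 1 chain of 20.1 kb, of which 36.3% was covered by peaks. In RefSeq the coding genes next to JUNB are HOOK2 on the side of the strongest peak and PRDX2 on the other, and no peak was assigned to a gene by its distance.

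JUN, the founding member of the family and a strong activator, had 6 peaks around chromosome 1 positions 59246000 to 59250000 (minus strand). The peak next to its start, at positions 59250034 to 59251003, was weak, with a fold enrichment of 2.87, a q-value of 1.00 and 20 fragments (12.2 to 30.9). The stronger JUN peaks lay away from the gene. Between 30.1 and 39.2 kb before the start, 4 peaks formed a chain of 9.43 kb with fold enrichments of 4.65, 4.65, 7.75 and 5.02. The strongest of them, at positions 59283773 to 59284063, had 45 fragments (32.8 to 60.2) and a q-value of 1.06e-10. A single peak 24.6 kb beyond the end had a fold enrichment of 5.11 and 31 fragments. The interval of the strongest peak does not overlap that of the peak at the start.

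JUND, a subunit known for broad and steady expression, had 0 peaks within 50 kb of chromosome 19 positions 18391000 to 18392000 (minus strand). By the limit of 3 counts that a count of 0 allows, up to 29.7 peaks per Mb remain possible in this window of 101 kb, and the upper end of the 95% Poisson interval, which is the one plotted with the densities, is 36.5 per Mb. Either is above the 7.90 per Mb of chromosome 19 as a whole. A lower density than on the chromosome was therefore not detectable with a window of this size, and a site with too few fragments to be called is not in the list. The nearest peak lay 83.8 kb before JUND, beyond the limit.

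Among the FOS genes, FOS itself had 1 strong peak, and it lay at the start. FOS is the classic immediate early gene, switched on within minutes of a stimulus. Its interval was chromosome 14 positions 75745000 to 75749000 (plus strand), and the peak at positions 75744924 to 75746044 covered the start. This peak had a fold enrichment of 17.2, a q-value of 2.51e-38 and 103 fragments (84.1 to 125) against a local background of 3.52, and it was number 31 of the whole list. A q-value of 0.05, reached by 58.5% of the whole list, was not reached by the other 3 FOS peaks. They lay 1.03, 19.2 and 43.6 kb before the gene, with fold enrichments of 3.23, 3.11 and 2.96 and with 16, 18 and 14 fragments. The strongest FOS peak had 5.32 times the fold enrichment of the second, the highest such ratio of the 7 genes with peaks, followed by JUNB with 2.81. No FOS peak lay beyond the end of the gene. TMED10 and JDP2, another AP-1 partner, are the coding neighbours of FOS in RefSeq.

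FOSB, an immediate early gene like FOS, had no peak on or within 10 kb of the gene. Around chromosome 19 positions 45971000 to 45978000 (plus strand), 4 peaks were found. Beside 58.5% of the whole list, 2 of the 4 had a q-value of at most 0.05. These were a peak 11.8 kb before the gene, with a fold enrichment of 5.02 and 25 fragments (16.2 to 36.9), and one 43.3 kb before it, with 5.66 and 42 fragments (30.3 to 56.8). The weaker peaks, 24.1 kb before the gene and 31.9 kb beyond its end, had fold enrichments of 3.02 and 2.62. All 4 peaks lay outside the gene, and ERCC1, a DNA repair gene, is its coding neighbour on the upstream side.

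FOSL1 had more peaks than any other of the 8 genes. FOSL1 encodes FRA-1, which is known for its high level in invasive squamous tumour cells. Its window, around chromosome 11 positions 65660000 to 65668000 (minus strand), held 12 peaks, of which 9 had a q-value of at most 0.05 and 5 were wider than 1000 bp. Of the whole list, 58.5% had such a q-value and 5.48% such a width. The start was covered by a peak at positions 65666470 to 65668222, 1753 bp wide, with a fold enrichment of 7.73 and 49 fragments (36.3 to 64.8). Of the 5 peaks before the gene, 2 had a higher fold enrichment than the start and 3 a lower one. The strongest, 15.4 kb before the start at positions 65682399 to 65683853, had a fold enrichment of 14.9, a q-value of 5.05e-37 and 115 fragments (94.9 to 138), and the interval at the start lies below this one.

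Another 4 peaks lay before FOSL1. At 12.4 kb the fold enrichment was 8.96 with 68 fragments (52.8 to 86.2), and at 11.4 kb it was 6.93 with 52 fragments (38.8 to 68.2). The peak at 2.83 kb had 67 fragments (51.9 to 85.1) but a fold enrichment of 5.30, with a local background of 10.5 fragments, 3.65 times that of the genome. The peak at 18.2 kb had 31 fragments and a fold enrichment of 5.47. These 5 upstream peaks, the peak at the start and 2 weak peaks just beyond the end formed a chain of 8 peaks over 29.1 kb. Fold enrichments of the 2 weak peaks were 2.77 and 2.36, each with a q-value of 1.00. A second group of 4 peaks lay 32.1 to 35.3 kb beyond the end, with fold enrichments from 3.47 to 4.60 and 17 to 28 fragments. These fold enrichments are below that at the start, but the intervals of the peaks with 28 (18.6 to 40.5) and 25 fragments (16.2 to 36.9) overlap that of the start. C11orf68 and DRAP1 follow FOSL1 on the upstream side in RefSeq, and CCDC85B and FIBP on the other.

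FOSL2, which encodes FRA-2, had 6 peaks in 2 groups of 3. On chromosome 2 its interval was 28616000 to 28638000 (plus strand). A peak of 1317 bp at positions 28615222 to 28616538 covered the start side of this interval. It had a fold enrichment of 5.77, a q-value of 6.58e-06 and 32 fragments (21.9 to 45.2). The interval is 2.46 kb shorter than the gene in RefSeq, so distances to the start are less certain here. The 2 other peaks near the start, 1.25 and 2.47 kb before it, had fold enrichments of 3.27 and 3.96 and q-values of 0.429 and 0.0543. The peaks of the group beyond the end, 21.7, 30.9 and 34.8 kb beyond the gene, had fold enrichments of 4.90, 6.31 and 6.47 with 36, 41 and 33 fragments. The counting intervals of these 3 peaks, from 22.7 to 55.6 fragments over all of them, overlap that of the start, so the order of the 4 peaks is not resolved at this depth.

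For ATF3, 3 of 3 peaks lay inside the gene interval. Its interval, chromosome 1 positions 212739000 to 212794000 (plus strand), is the longest of the 8 at 55.0 kb, and there was no peak at its upstream edge. The strongest peak, 30.8 kb inside at positions 212769441 to 212770030, had a fold enrichment of 9.38, a q-value of 3.30e-13 and 49 fragments (36.3 to 64.8). A peak 43.0 kb inside, at positions 212781643 to 212782271, had a fold enrichment of 6.47, a q-value of 1.20e-06 and 33 fragments (22.7 to 46.3). The third, 42.1 kb inside, had a fold enrichment of 2.66, a q-value of 1.00 and 12 fragments, the fewest of the 41. In GENCODE v44, which is built on GRCh38, the main ATF3 transcript starts 43.4 kb inside the gene, downstream of the first start. Set against this offset, the 3 summits, at 30.8, 42.1 and 43.0 kb, lay before that start or close to it. Inside therefore refers to the interval and not to the main transcript. The interval ends are known to the nearest kb and the builds differ, so whether the peak 43.0 kb inside covers that start was not tested.

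**Figure D2:**
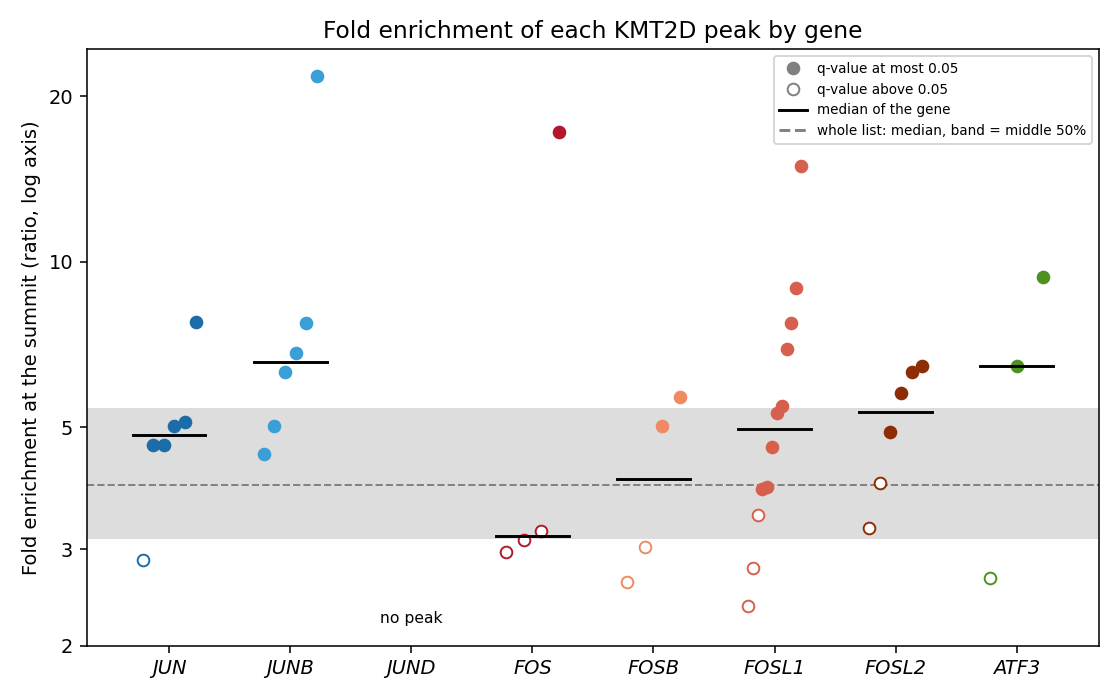
Fold enrichment at the summit of each peak, on a log axis, by gene. Filled circles have a q-value of at most 0.05, black lines are the medians of each gene, and the dashed line and grey band are the median (3.93) and middle 50% (3.14 to 5.39) of the whole list. JUNB, FOS and FOSL1 each have 1 peak far above the band, at 21.8, 17.2 and 14.9.

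The peak of highest fold enrichment was taken for each gene, and these 7 peaks fell into 2 groups by their fragments. JUNB with 128 (107 to 152), FOSL1 with 115 (94.9 to 138) and FOS with 103 (84.1 to 125) had overlapping intervals and cannot be ordered. ATF3 with 49 (36.3 to 64.8), JUN with 45 (32.8 to 60.2), FOSB with 42 (30.3 to 56.8) and FOSL2 with 33 (22.7 to 46.3) overlapped each other as well. For FOSL2 another peak had more fragments, 41 (29.4 to 55.6), and its interval falls in the same group. Every interval of the first group lay above every interval of the second. By the median over their peaks the order was another one, from JUNB (6.57) and ATF3 (6.47) through FOSL2 (5.34), FOSL1 (4.95), JUN (4.84) and FOSB (4.02) to FOS (3.17). Fold enrichments ran from 4.47 to 21.8 around JUNB and from 2.96 to 17.2 around FOS. Order-statistic intervals of the medians overlap for all 7 genes, so the order of the medians is not resolved. For FOSL1 this interval is 3.47 to 7.73, and for each other gene it is the whole range of its peaks. With 3 or 4 peaks, as at ATF3, FOS and FOSB, such an interval falls short of 95%. FOS was last by its median fold enrichment although it had the second strongest single peak by that measure.

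**Figure D3:**
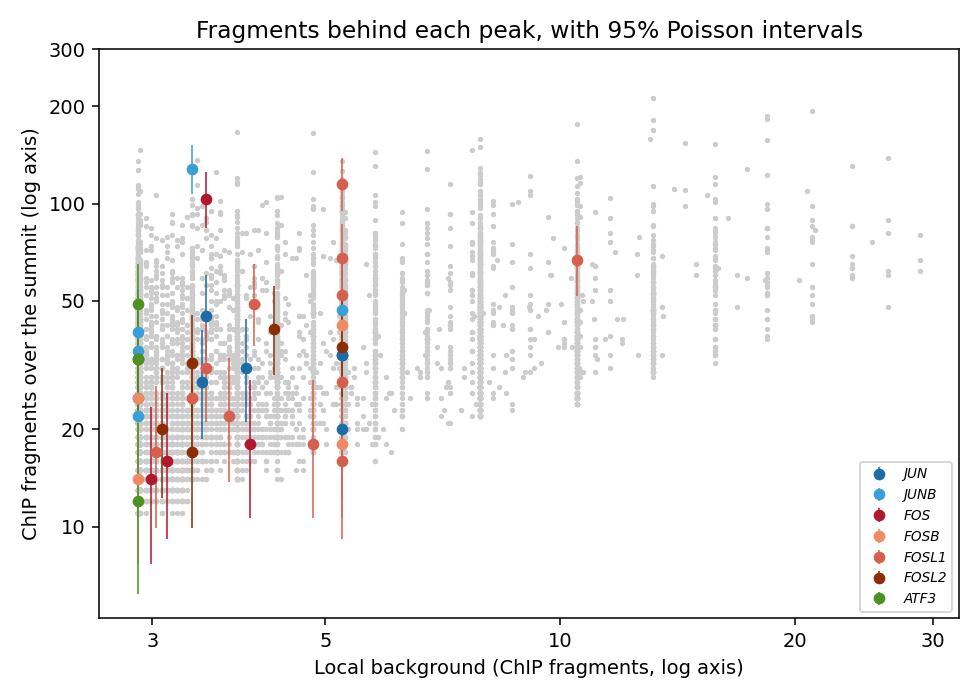
ChIP fragments over the summit against the local background in fragments, both on log axes. Coloured points are the 41 peaks with 95% Poisson intervals, and grey points are 13075 of the 13136 peaks on chromosomes 1 to 22 and X that lie within the axes. The strongest JUNB, FOS and FOSL1 peaks rest on 128, 103 and 115 fragments over backgrounds of 3.37, 3.52 and 5.26.

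The side on which the peaks lay differed between the genes. Of the 41 summits, 22 were upstream, 6 inside and 13 downstream. JUN, JUNB, FOS and FOSB had more summits upstream than downstream, FOSL2 as many and FOSL1 fewer, and those of ATF3 were inside its interval. By the GENCODE v44 offset the ATF3 summits lay before the start of the main transcript or close to it. The same split was not measured for other genes, so no preference for a side is read from it. In all, 8 peaks overlapped an interval, in 4 genes of the AP-1 family and in ATF3. Peaks covered the start side of the intervals of FOS, FOSL1 and FOSL2. A JUNB peak began at position 12902025 and a JUN peak at 59250034, close to that side of their intervals. Interval ends can be wrong by 0.5 kb, so whether these peaks cover a start was not resolved. Within 2 kb of the start side of the gene interval lay 7 summits in 5 genes. This count leaves out starts inside a gene such as that of the main ATF3 transcript. Upstream peaks had fold enrichments up to 21.8 and those downstream up to 6.83. Histone marks at these positions were not analysed here.

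Of the 41 peaks, 29 passed a q-value of 0.05 (70.7%, Wilson interval at 95% of 55.5 to 82.4%), and 58.5% of all 13808 peaks did, a share inside that interval. At 0.01, 27 passed (65.9%, 50.6 to 78.4%), and 47.7% of the list did. The genes were chosen with their peaks known, and peaks that lie close together are not independent of each other. The intervals of these shares therefore do not test the 41 peaks against the list. 12 peaks (29.3%, 17.6 to 44.5%) were wider than 1000 bp, beside 5.48% of the list, and the median width was 576 bp beside 341 bp. JUNB and FOSL1 gave 8 of the 12 wide peaks. Median fold enrichment was 5.02 (order-statistic interval 3.96 to 6.30), beside 3.93, and 3 of 41 peaks had a fold enrichment of at least 10, beside 4.18% of the list.

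The same comparison within the 5 chromosomes that carry the genes gave like values. Their 4167 other peaks had a share of 59.0% that passed a q-value of 0.05 and a share of 6.70% wider than 1000 bp. On chromosome 19, 10 of the 464 peaks (2.16%) were those of JUNB and FOSB.

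**Figure D4:**
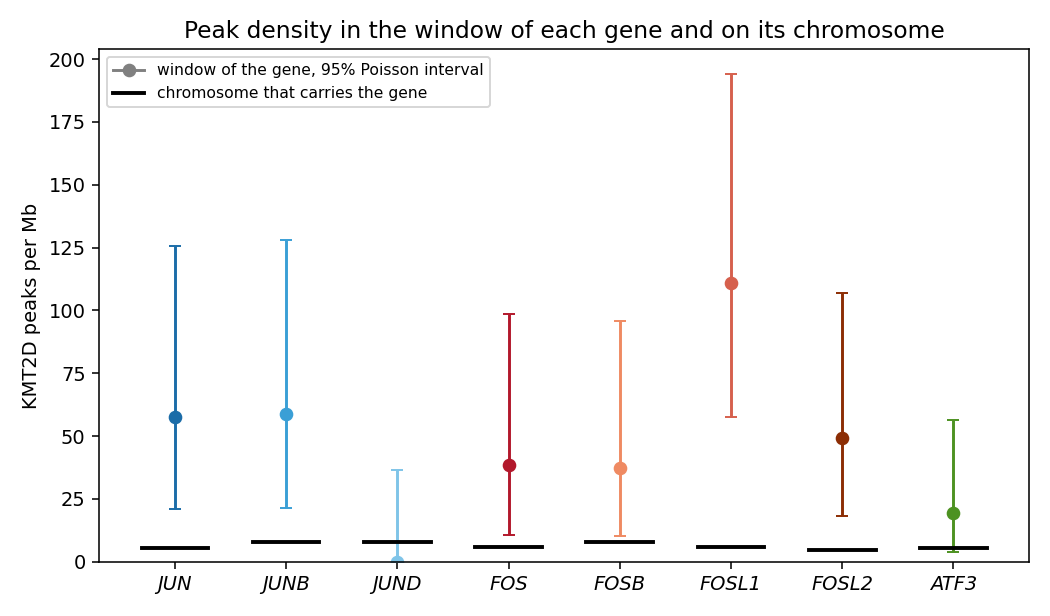
KMT2D peaks per Mb in the window of each gene, as points with 95% Poisson intervals, and on the chromosome that carries it, as black lines. The intervals of JUN, JUNB, FOS, FOSB, FOSL1 and FOSL2 lie above their chromosome, while those of JUND and ATF3 include it.

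Peaks per Mb over the 8 windows, 0.903 Mb in all, came to 45.4 (95% Poisson interval 32.6 to 61.6), beside 4.49 over chromosomes 1 to 22 and X. Density was highest around FOSL1, at 111 per Mb (57.4 to 194), and was 58.8 around JUNB, 57.7 around JUN and 49.2 around FOSL2. It was 38.5 around FOS and 37.4 around FOSB. Around ATF3 it was 19.4 (3.99 to 56.6), and the interval includes the 5.57 per Mb of chromosome 1. Since the genes were chosen with their peaks known, and a window around a gene is unlike a chromosome that includes long stretches without genes, nothing further is read from these densities.

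Most of the peaks had close neighbours. After peaks with short gaps were joined into chains, 31 of the 41 peaks (75.6%) lay in chains of at least 3 peaks and 14 (34.1%) in chains of at least 5, the latter being those of JUNB and FOSL1. Of the peaks on chromosomes 1 to 22 and X, 33.8% and 13.4% did. A choice of windows that hold several peaks raises these shares by itself.

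At the 50 kb limit, the outermost peaks inside lay 43.6 kb from FOS, 43.3 kb from FOSB and 39.2 kb from JUN, with fold enrichments of 2.96, 5.66 and 5.02. The nearest peaks outside lay 52.7 kb from JUN, 53.9 kb from JUNB and 56.1 kb from FOS, with fold enrichments of 5.44, 2.83 and 2.96.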

How the data were processed

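ChIP-seq of SCC23 cells was described by 14 samples, and 1 of them gave the peak list used here. The other libraries were not analysed here. Per the study's methods the authors aligned reads with Bowtie2 against hg19, retained those with a unique position and ran MACS2 with a p-value limit of 0.01. The control is not named there. The deposited fold enrichment is a ratio of scaled ChIP pileup to local background with a pseudocount. The deposited significance columns are the −log10 of the p-value and of the q-value, and the deposited score is the whole part of 10 times the −log10 p.

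Fragments were rebuilt as the whole number that gives both the fold enrichment and the Poisson p-value under 1 common scale, 0.381. All 13808 peaks came out whole, with a largest gap of 0.00118 in −log10 p. On 3 simulated lists of at least 3362 peaks, at least 99.6% of fragment numbers were recovered exactly. Reads were single-ended per the study's methods, so a fragment here stands for 1 read as MACS2 extends it. Duplicates were not assessed.

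Gene intervals (hg19, to the nearest kb, so that a distance can be wrong by 0.5 kb) came with the rule. The genome at hand was GRCh38, and therefore peaks were not annotated. Chromosomes matched RefSeq for 8 of 8 genes, and interval lengths differed from RefSeq by up to 0.929 kb, except for FOSL2 with 2.46 kb. Distances to FOSL2 can therefore be wrong by more than 0.5 kb. Strand came from GENCODE v44. Other bZIP genes were not placed. Protein sequences were not used here. Chains joined peaks over gaps of up to 12500 bp. Intervals are 95% Poisson, Wilson or, for medians, binomial order-statistic intervals. No test was made.

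The genes and tests were chosen with earlier results of these data known. Text items were the 8 genes with their peak count, strongest and nearest peak and every peak overlapping the interval, and the peaks beside the limit. Other peaks and the motif TGACNTCA were added after their values were seen. Scripts ran under Python 3.11.15 with pandas 2.3.3, scipy 1.17.1 and numpy 2.4.6, and plots came from matplotlib 3.10.9.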

Additional observations from a re-analysis of the deposited data

How the results depend on the processing

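With 78 alternative values over 5 results (number of peaks, share at a q-value of at most 0.05, median fold enrichment, share of wide peaks and median fragments), 72 stayed within 1.5 times the count or within the counting interval of the reported value and 6 moved. The number of peaks, 41, was 19 within 10 kb, 62 within 100 kb and 27 at a q-value of at most 0.01, by construction. The share of peaks wider than 1000 bp, 29.3%, became 48.4% when peaks closer than 1000 bp were merged, 53.7% with a limit of 500 bp and 2.44% with 2000 bp, and the whole list had 27.3% and 0.543% at the last 2 limits. Leaving out each gene in turn gave 29 to 41 peaks, a share of wide peaks of 24.1 to 31.6%, a share at a q-value of at most 0.05 of 65.7 to 75.7% and a median fold enrichment of 4.90 to 5.02. No paired analysis was possible because only 1 of the 14 samples entered the work. With a median of 31 fragments per summit and no replicate, the list cannot show which weaker peaks would recur.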

Other observations

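Further peaks lay between 50 and 100 kb from the genes and belong to none of the 41. They were described after their values were seen. Before JUN, a peak 64.7 kb away at chromosome 1 positions 59314249 to 59315076 had a fold enrichment of 11.3 and 71 fragments (95% Poisson interval 55.5 to 89.6), more than any JUN peak inside the limit by fold enrichment. Before JUND, 3 peaks lay 83.8 to 97.3 kb away, the strongest of them at chromosome 19 positions 18484608 to 18485635 with a fold enrichment of 11.6 and 61 fragments (46.7 to 78.4). PGPEP1 and GDF15, a stress-responsive cytokine, follow LSM4 on that side of JUND in RefSeq, and which gene the peaks belong to was not tested. Of 5 peaks before FOSB, 4 lay 61.2 to 67.3 kb away with fold enrichments from 4.29 to 7.20 and 21 to 37 fragments. The strongest FOSB peak inside the limit had a fold enrichment of 5.66 and 42 fragments (30.3 to 56.8). By fold enrichment the peaks with 7.20, 6.11 and 5.74 exceeded it, and that with 4.29 did not. By fragments none of the 4 exceeded it, and the intervals of their counts overlap its own. ATF3 had no peak in this range.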
